A study of Mus musculus with 2 samples.

Results

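The interleukin 1 system and the inflammasome were described in leukocytes of the mouse heart through 8 genes of the 23946 found in either library. These are the genes of the agonists IL-1α, IL-1β, and IL-18 (Il1a, Il1b, and Il18), the antagonist (Il1rn), the decoy receptor (Il1r2), the shared coreceptor (Il1rap), and 2 parts of the inflammasome (Nlrp3 and Casp1). They were chosen by name, with earlier results of these data known, and each was found in both libraries. All cells came from the hearts of WT female C57BL6 mice, for which the methods give an age of 8 to 16 weeks. The TTS group received a single i.p. injection of 200 mg/kg isoproterenol (ISO), a β-adrenergic agonist used to model Takotsubo syndrome (TTS), and the control group received PBS. The treatment label names ISO for both groups, so that the title and the methods were used to tell which is the control. Hearts were taken 24 hours after injection, live CD45+ cells were sorted, and the cells of 3 mice were pooled in 1 droplet library per group. With 1 library per group no test was possible, and the pooled mice cannot be told apart.

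IL-1α and IL-1β act on the same receptor, which signals only when it is joined by the coreceptor IL1RAP. IL-1α is active as its full-length precursor and acts as an alarm signal of damaged cells, whereas the IL-1β and IL-18 precursors are cut by caspase-1 once a sensor such as NLRP3 assembles an inflammasome with the adaptor encoded by Pycard. The receptor antagonist encoded by Il1rn occupies the receptor without signaling, and IL1R2 binds IL-1 without a signaling domain. Myeloid cells are the main source of these transcripts. Transcript levels say nothing of cleavage or secretion.

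The deposited values were unique molecular identifier (UMI) counts, each UMI standing for 1 captured RNA molecule. After the cell filters, 5641 control and 5437 TTS barcodes were kept, with 41651434 and 55443553 UMIs and medians of 4790 and 8537 UMIs. Of all barcode sequences, 15 occurred in both libraries. Each barcode was placed in a class when its UMIs of a marker list, per 10000 UMIs, reached a limit that was the same in both libraries. Barcodes with markers of a further lineage were left out of the classes as possible doublets or as barcodes with much free RNA. They were 1814 control (32.2%) and 1418 TTS barcodes (26.1%). A further 48 control and 578 TTS barcodes reached no limit. The classes held 842 control and 1605 TTS macrophage-gated, 59 and 1106 classical monocyte-gated, and 108 and 130 neutrophil-gated barcodes. In TTS, 453 of the macrophage-gated and 411 of the monocyte-gated barcodes lay within 1.5 times of the limit or of the score of a further class, against 31 and 19 in control. Levels are given as counts per 1000000 UMIs of a class (CPM) with exact 95% Poisson intervals, which cover counting error only. Because the 3′ end of each RNA is tagged, CPM counts molecules and does not depend on gene length.

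The 3 members described at most length are encoded on chromosome 2. In GRCm38 with the GENCODE M21 annotation, Il1b (ENSMUSG00000027398.13) lies at chr2:129364570-129371139 and Il1a (ENSMUSG00000027399.1) at chr2:129299610-129309972, both on the minus strand. Il1rn (ENSMUSG00000026981.15) lies at chr2:24336853-24351494 on the plus strand. The 250 bases before their RefSeq starts are shown because these 3 genes were all higher in TTS in macrophage- and monocyte-gated barcodes. They are printed 5′ to 3′ on the strand of the gene, from the RefSeq promoter table for GRCm38.p6, with matches to the AP-1 letters TGANTCA on either strand in capitals. The windows are chr2:129309973-129310222 for Il1a, chr2:129371140-129371389 for Il1b, and chr2:24336610-24336859 for the first of the 3 starts of Il1rn.
Il1a: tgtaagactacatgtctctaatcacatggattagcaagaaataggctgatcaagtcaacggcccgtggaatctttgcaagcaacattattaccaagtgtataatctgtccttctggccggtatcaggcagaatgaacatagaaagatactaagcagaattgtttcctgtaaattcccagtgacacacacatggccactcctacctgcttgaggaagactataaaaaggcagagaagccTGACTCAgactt
Il1b: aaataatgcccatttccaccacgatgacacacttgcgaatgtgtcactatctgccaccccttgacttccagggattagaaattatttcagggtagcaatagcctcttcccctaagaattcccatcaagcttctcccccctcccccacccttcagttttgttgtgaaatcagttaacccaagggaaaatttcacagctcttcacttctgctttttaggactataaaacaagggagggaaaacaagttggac
Il1rn: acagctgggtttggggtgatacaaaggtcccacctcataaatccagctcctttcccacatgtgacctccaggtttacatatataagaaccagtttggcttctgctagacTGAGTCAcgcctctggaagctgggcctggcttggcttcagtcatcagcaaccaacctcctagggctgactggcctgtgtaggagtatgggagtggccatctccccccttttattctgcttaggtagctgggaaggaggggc
The Il1a window held 1 match starting 12 bases before the start, and the Il1rn window held 1 match starting 141 bases before it. The Il1b window held none, nor any match to the CRE letters TGACGTCA, the C/EBP letters TTGCNNAA, or NF-kB by name. These letters were not in this window, and more distant sequence was not searched. Of 32851 promoters, 6.75% held the AP-1 letters, 1.55% the CRE letters, 9.56% the C/EBP letters, and 7.25% the NF-kB motif. Among the other members, the only match to these 4 motifs was 1 NF-kB motif, before the second start of Nlrp3. A match is a description of the letters and not of a bound site.

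Il1b was found in neutrophils, monocytes, macrophages, and conventional dendritic cells (cDC) of both libraries. Its summed level was higher in TTS in each of these but the neutrophils. Macrophage-gated barcodes had 3721 CPM in control (interval 3671 to 3770) and 10225 CPM in TTS (10175 to 10275). Classical monocyte-gated barcodes had 4198 CPM in control (4025 to 4376) and 13155 CPM in TTS (13084 to 13227). The TTS level of both classes was thus higher, by 1.46 (1.44 to 1.48) and 1.65 (1.59 to 1.71) on the log2 scale. Neutrophil-gated barcodes had the highest Il1b level in each library, with 25540 CPM in control (24988 to 26100) and 19928 CPM in TTS (19659 to 20199). Among these classes and the cDC, the order in control was neutrophil, cDC2 (6186 CPM, 5939 to 6441), classical monocyte, macrophage, and cDC1 (1471 CPM, 1375 to 1571). In TTS the order was neutrophil, classical monocyte, macrophage, cDC2 (10015 CPM, 9886 to 10146), and cDC1 (4714 CPM, 4584 to 4846). No intervals of neighbors in these orders overlapped, but the intervals cover counting error only. By medians over barcodes, the place of cDC2 differed. In control its median was 2513 CPM, against 2704 CPM in classical monocytes. In TTS it was 6412 CPM, against 6201 CPM in macrophages.

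Single barcodes varied widely in Il1b within a class. In TTS macrophage-gated barcodes, the 10th percentile was 112 CPM, the median 6201 CPM, and the 90th percentile 26188 CPM. In control, the median was 765 CPM and the 90th percentile 10862 CPM. In monocyte-gated barcodes, the median was 2704 CPM in control and 9955 CPM in TTS. The neutrophil-gated medians were 25703 CPM and 21702 CPM. The 90th percentile of TTS macrophage-gated barcodes was thus above the neutrophil-gated median, and the 10th percentile was far below it.

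**Figure D1:**
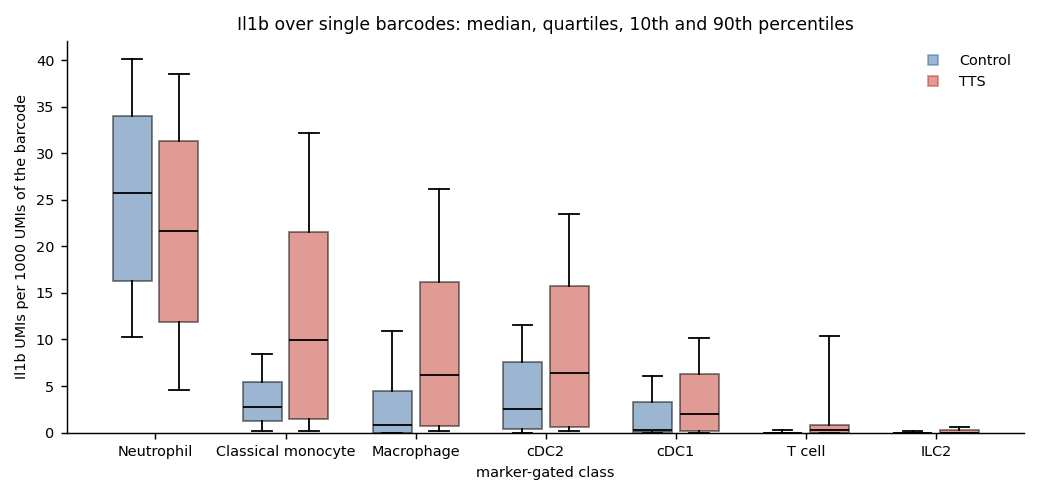
Il1b over single barcodes of each marker-gated class (horizontal axis), as UMIs per 1000 UMIs of the barcode (vertical axis), for control (blue) and TTS (red). The line is the median, the box spans the quartiles, and the whiskers the 10th and 90th percentiles; the macrophage-gated median lies at 765 CPM in control and 6201 CPM in TTS, and both neutrophil-gated medians lie above 20 per 1000.

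RNA from broken cells gives UMIs to barcodes that do not express a gene, so the lymphocyte classes were read as background. ILC2-gated barcodes had 88.7 CPM of Il1b in control and 418 CPM in TTS. B cell-gated barcodes had 175 CPM in control and 4791 CPM in TTS, and T cell-gated barcodes had 285 CPM and 5999 CPM. In TTS these sums came from few barcodes, as the median over barcodes was 291 CPM in the 25 B cell-gated and 261 CPM in the 85 T cell-gated barcodes. The T cell-gated TTS barcodes also had 1446 CPM of the classical monocyte list, against 411 CPM in control. Shares of barcodes with a UMI were compared after thinning each barcode to 1000 UMIs, at which depth Il1b was found in 75.9% of TTS macrophage-gated barcodes (exact Clopper-Pearson interval 73.7% to 78.0%). It was found in 20% of ILC2-gated (10.4% to 33.0%), 36.5% of T cell-gated (26.3% to 47.6%), and 52% of B cell-gated TTS barcodes (31.3% to 72.2%). In control the share was 54.4% in macrophage-gated (51.0% to 57.8%) and 5.98% to 7.94% in the 4 lymphocyte classes. Without thinning, the macrophage-gated shares were 69.4% in control and 91.6% in TTS. Median depth was 6072 UMIs in control and 8086 UMIs in TTS for macrophage-gated barcodes, and 5338 and 3530 UMIs for ILC2-gated barcodes. Macrophage-gated barcodes thus stayed above each lymphocyte class in both libraries, with an interval that met none of theirs. The cDC1-gated TTS level of 4714 CPM was near that of B cell-gated and below that of T cell-gated barcodes, with a median of 2033 CPM. The cDC1-gated TTS share of 62.1% (51.6% to 71.9%) met the B cell-gated interval. Il1b of cDC1-gated TTS barcodes was thus not set apart from free RNA in every lymphocyte class.

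Il1a had the largest ratio between the libraries in monocyte- and neutrophil-gated barcodes. Classical monocyte-gated barcodes had 13.2 CPM in control, from 7 UMIs (5.31 to 27.2), and 484 CPM in TTS (470.4 to 498). Macrophage-gated barcodes had 109.9 CPM in control (101.6 to 118.7) and 408 CPM in TTS (398 to 418). Neutrophil-gated barcodes had 37.6 CPM in control, from 12 UMIs (19.4 to 65.7), and 649.9 CPM in TTS (602 to 700.4). The log2 ratios were 5.10 (4.15 to 6.51), 1.89 (1.78 to 2.01), and 4.05 (3.30 to 5.07). In control, macrophage-gated barcodes had the highest Il1a level, with an interval that met that of cDC2-gated barcodes (71.0 CPM, 46.8 to 103.4), and in TTS neutrophil- and monocyte-gated barcodes were above them. After thinning, 21.1% of TTS macrophage-gated (19.1% to 23.1%), 24.3% of monocyte-gated, and 35.4% of neutrophil-gated barcodes had a UMI of Il1a, against 0 of 85 T cell-gated (up to 4.25%), 1.82% of ILC2-gated (0.046% to 9.72%), 6.25% of NK cell-gated (0.77% to 20.8%), and 12% of B cell-gated barcodes (2.55% to 31.2%). The macrophage-gated interval thus lay above those of T cell- and ILC2-gated barcodes and met those of the 32 NK cell-gated and 25 B cell-gated barcodes. In control the macrophage-gated share was 7.13% (5.48% to 9.08%). Unthinned, the macrophage-gated shares were 21.9% and 49.3%. The 25 B cell-gated TTS barcodes had 472 CPM of Il1a, found in 16% of its barcodes without thinning, so that this small class reached the macrophage level.

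Il18, encoded at chr9:50554827-50581840, showed no such difference. Macrophage-gated barcodes had 30.4 CPM in control (26.1 to 35.2) and 29.0 CPM in TTS (26.4 to 31.8). Monocyte-gated barcodes had 47.2 CPM in control (30.5 to 69.7) and 41.4 CPM in TTS (37.5 to 45.6). The log2 ratios were -0.07 (-0.32 to 0.19) and -0.22 (-0.77 to 0.46), so differences up to these bounds cannot be told from counting error. Neutrophil-gated barcodes had 1 Il18 UMI in control and 13 in TTS, too few to compare. After thinning, Il18 was found in 2.85% of control and 3.86% of TTS macrophage-gated barcodes (unthinned 18.5% and 21.9%), and in 0 of the 55 ILC2-gated (up to 6.49%) and 0 of the 85 T cell-gated TTS barcodes (up to 4.25%). Il18 is annotated over part of Bco2 and Tex12, and the strand setting of the counting was not given in the sources used here. Il1b likewise overlaps the antisense gene Il1bos, Il1a overlaps Gm14023, Il1r2 overlaps Gm16894 and Gm37347, and Il1rap overlaps Gm20319.

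**Figure D2:**
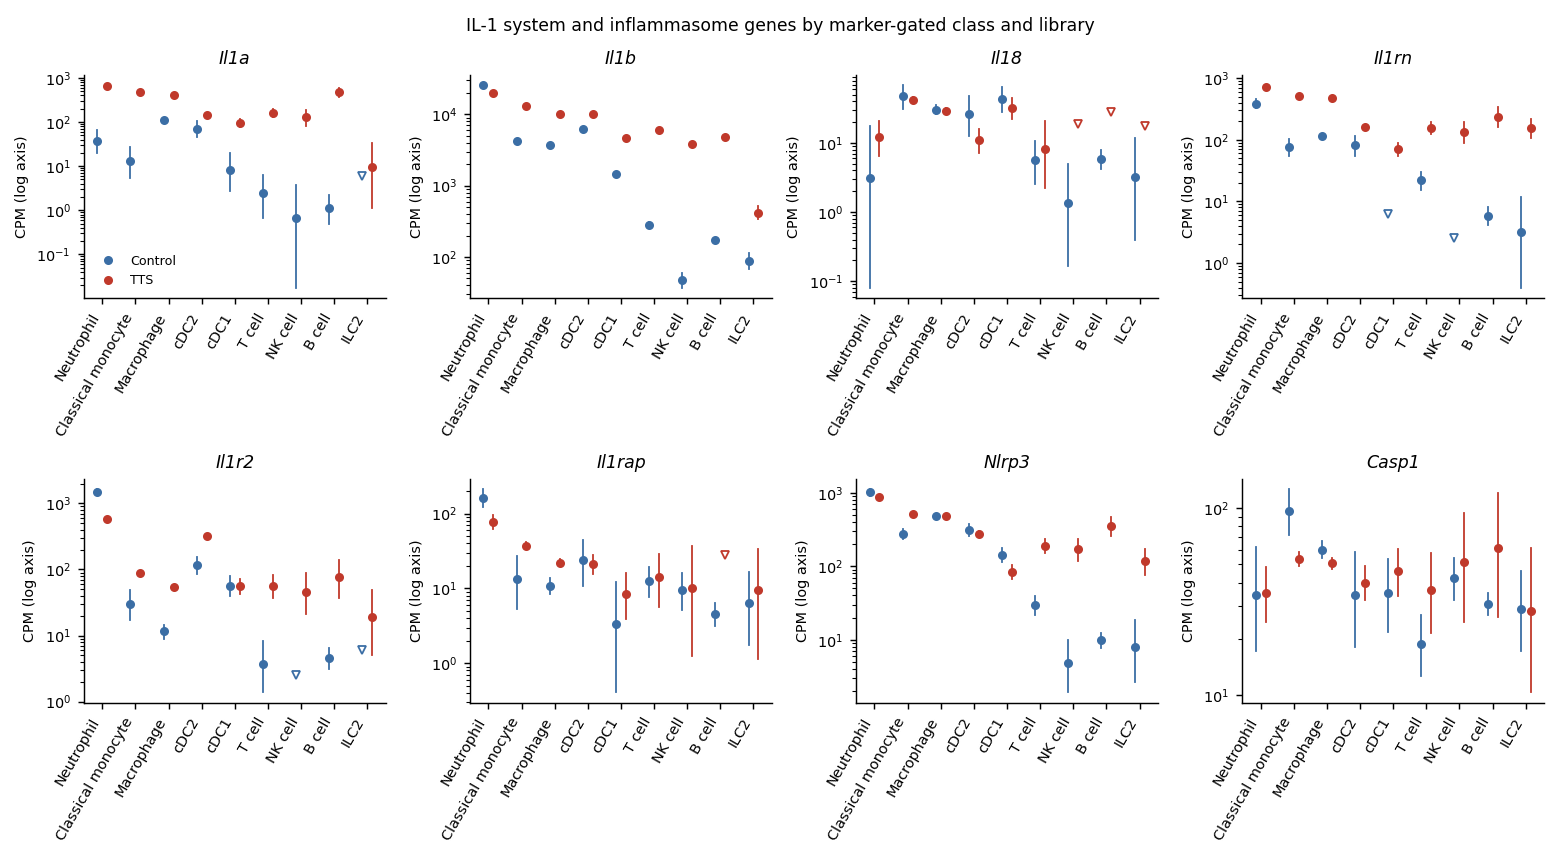
Level of each of the 8 genes (CPM, log axis) in 9 marker-gated classes (horizontal axis) in control (blue) and TTS (red). Points are sums over the barcodes of a class with 95% Poisson intervals, and an open triangle marks the upper limit where no UMI was found; Il1b, Il1rn, Il1r2, and Il1rap had their highest control level in neutrophil-gated barcodes, and Nlrp3 too.

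The receptor antagonist Il1rn was higher in TTS than in control in monocytes and macrophages. It was found at 116.8 CPM in control (108.3 to 125.9) and 472 CPM in TTS (462 to 483) in macrophage-gated barcodes. In monocyte-gated barcodes it was found at 77.4 CPM (55.5 to 105.0) and 522 CPM (508 to 536). Neutrophil-gated barcodes had 389 CPM in control (323 to 463) and 731 CPM in TTS (681 to 785). The log2 ratios were 2.01 (1.90 to 2.13), 2.74 (2.31 to 3.23), and 0.91 (0.64 to 1.20), so that neutrophil-gated barcodes stayed under the 2-fold limit. After thinning, the share of macrophage-gated barcodes with an Il1rn UMI was 7.60% in control (5.90% to 9.60%) and 29.8% in TTS (27.6% to 32.1%), while unthinned it was 22.3% and 68.4%. The thinned TTS share was 1.82% in ILC2-gated, 5.88% in T cell-gated, 6.25% in NK cell-gated, and 8% in B cell-gated barcodes, each with an interval under that of macrophage-gated barcodes. In cDC1-gated barcodes, Il1rn had 0 UMIs in control (up to 6.18 CPM) and 70.4 CPM in TTS. This TTS level lay below those of the lymphocyte classes, from 133.7 CPM in NK cell-gated to 236.1 CPM in B cell-gated barcodes, and is read as background.

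The amount of antagonist RNA per agonist RNA also differed. In macrophage-gated barcodes there were 3.14 Il1rn UMIs per 100 Il1b UMIs in control (2.91 to 3.39) and 4.62 in TTS (4.51 to 4.73). In monocyte-gated barcodes the ratio was 1.84 in control (1.32 to 2.51) and 3.97 in TTS (3.86 to 4.08). In neutrophil-gated barcodes it was 1.52 (1.26 to 1.82) and 3.67 (3.41 to 3.94). In each of these 3 classes the intervals of the libraries did not overlap, with Il1rn higher relative to Il1b in TTS. In cDC2-gated barcodes the ratio was 1.32 (0.89 to 1.88) and 1.598 (1.44 to 1.77), and these intervals overlapped. In the lymphocyte classes of TTS the ratio was 2.63 in T cell-gated, 3.52 in NK cell-gated, 4.93 in B cell-gated, and 37.1 in ILC2-gated barcodes, the last from 33 Il1rn and 89 Il1b UMIs.

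The decoy receptor Il1r2 (ENSMUSG00000026073.13, chr1:40074079-40125231) was highest in neutrophils, mature DC, and cDC2. Neutrophil-gated barcodes had 1510 CPM in control (1378 to 1651) and 579 CPM in TTS (534 to 627). In cDC2-gated barcodes it had 115.8 CPM in control (84.1 to 155.4) and 324 CPM in TTS (301 to 349). The 17 mature DC-gated TTS barcodes had 509 CPM (401 to 637). In macrophage-gated barcodes the level was 11.5 CPM in control (8.97 to 14.6) and 55.2 CPM in TTS (51.6 to 59.0), a log2 ratio of 2.25 (1.90 to 2.63). This TTS level was near that of T cell-gated (56.6 CPM) and NK cell-gated TTS barcodes (46.3 CPM), and above that of ILC2-gated barcodes (18.8 CPM, 5.12 to 48.1). The thinned TTS share was 3.801% in macrophage-gated, 3.64% in ILC2-gated, 3.12% in NK cell-gated, 20% in B cell-gated barcodes (6.83% to 40.7%), and 0 of 85 in T cell-gated barcodes (up to 4.25%), while the unthinned macrophage-gated share was 21.2%. The macrophage-gated interval (2.92% to 4.86%) met those of T cell-, NK cell-, and ILC2-gated barcodes and lay below that of B cell-gated barcodes. In TTS the share thus could not be told from free RNA. In control, the macrophage-gated level of 11.5 CPM lay above those of B cell-gated (4.59 CPM, 3.14 to 6.48), T cell-gated (3.75 CPM, 1.38 to 8.16), NK cell-gated (0 UMIs, up to 2.51 CPM), and ILC2-gated barcodes (0 UMIs, up to 5.95 CPM). The monocyte-gated TTS share of 7.05% (5.61% to 8.72%) met the intervals of NK cell- and B cell-gated barcodes. It lay within the interval of ILC2-gated barcodes (0.44% to 12.5%) and above that of T cell-gated barcodes. The cDC2-gated TTS share of 21.3% (16.5% to 26.9%) lay above that interval, though within that of B cell-gated barcodes, against 4.88% in control (0.60% to 16.5%).

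Il1rap (chr16:26581704-26730117) was low in all classes and highest in neutrophils. Neutrophil-gated barcodes had 162.9 CPM in control (121.7 to 213.7) and 77.7 CPM in TTS (61.8 to 96.4). Macrophage-gated barcodes had 10.9 CPM (8.37 to 13.9) and 22.1 CPM (19.9 to 24.6), and monocyte-gated barcodes 13.2 CPM, from 7 UMIs (5.31 to 27.2), and 37.3 CPM (33.6 to 41.4). The thinned TTS share was 1.99% in macrophage-gated and 3.89% in monocyte-gated barcodes, against 2.35% in T cell-gated (0.29% to 8.24%) 1.82% in ILC2-gated, and 0 in NK cell-gated (up to 10.9%) and B cell-gated barcodes (up to 13.7%). The unthinned shares were 17.9% and 26.0% in the first pair. Both shares lay within the T cell-gated interval and could not be told from free RNA at this depth. The monocyte-gated CPM was above the 14.2 CPM of T cell-gated barcodes (5.69 to 29.2). B cell-gated barcodes had 4.59 CPM of Il1rap in control and 0 UMIs in TTS (up to 28.1 CPM). Subtracting these levels as free RNA gave a log2 ratio of 1.80 in macrophage-gated barcodes.

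The inflammasome sensor Nlrp3 (ENSMUSG00000032691.14, chr11:59541568-59566956) differed by less than the counting error between macrophages of the libraries. Macrophage-gated barcodes had 489.8 CPM in control (472 to 508) and 488 CPM in TTS (477 to 499), a log2 ratio of -0.01 (-0.07 to 0.06). Monocyte-gated barcodes had 277 CPM (234 to 326) and 509.6 CPM (496 to 524), a log2 ratio of 0.87 (0.64 to 1.12). In neutrophil-gated barcodes the level was 1009 CPM (902 to 1125) and 884 CPM (828 to 942). Monocytes were below macrophages in control and level with them in TTS. After thinning, 27.8% of control and 31.96% of TTS macrophage-gated barcodes had a UMI (24.8% to 31.0% and 29.7% to 34.3%), and unthinned 59.7% and 77.6%. The thinned TTS share was 6.25% to 9.41% in the 4 lymphocyte classes, and ILC2-gated barcodes had 1.90% in control. Subtracting the level of the 25 TTS B cell-gated barcodes as free RNA gave log2 ratios of -1.81 in macrophage-gated and -0.75 in monocyte-gated barcodes, and subtracting that of ILC2-gated barcodes gave -0.38 and 0.54.

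Casp1, which encodes the protease that cuts pro-IL-1β and pro-IL-18, lies at chr9:5298517-5307265 and stayed within 2-fold in these sums. Macrophage-gated barcodes had 59.9 CPM in control (53.9 to 66.5) and 50.6 CPM in TTS (47.2 to 54.3), and neutrophil-gated barcodes had 34.5 and 35.1 CPM. Monocyte-gated barcodes had 96.3 CPM (71.7 to 126.6) and 53.8 CPM (49.3 to 58.5), a log2 ratio of -0.85 (-1.26 to -0.40), which was 0.39 when barcodes were thinned before summing. Casp1 was found in lymphocytes too, with 42.2 CPM in control NK cell-gated and 30.8 CPM in control B cell-gated barcodes. The thinned TTS shares were 5.11% in macrophage-gated (4.08% to 6.30%) and 4.71% in T cell-gated barcodes (1.30% to 11.6%), and the unthinned shares 34.8% and 16.5%. In TTS a difference between these classes was not detectable at this depth, whereas in control the shares were 4.75% (3.42% to 6.41%) and 0.72% (0.088% to 2.58%), with levels of 59.9 and 18.8 CPM (12.7 to 26.8). With the B cell-gated level subtracted, the log2 ratio of Casp1 was -9.84 in macrophage-gated and -10.35 in monocyte-gated barcodes. With the ILC2-gated level it was -0.46 and -1.41. The B cell-gated TTS level was 60.9 CPM, from 8 UMIs (26.3 to 120.1). As lymphocytes of control held Casp1 too, these levels cannot be taken as free RNA alone, and no difference is read from these ratios.

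Read together, 5 of the 8 genes were more than 2-fold higher in TTS macrophage-gated barcodes (Il1a, Il1b, Il1rn, Il1r2, and Il1rap), and none was more than 2-fold lower. Among all 12091 genes compared there, 9.08% were more than 2-fold higher and 19.6% more than 2-fold lower, and the median log2 ratio was 1.24 for the members and -0.21 for all genes. In monocyte-gated barcodes the same 5 genes were higher and none lower. Of 10104 genes compared, 11.7% were higher and 20.1% lower, with a median of 1.44 for the members and -0.24 for all genes. For Il1rap, the TTS share of macrophage-gated barcodes met the interval of each lymphocyte class. For Il1r2, it met those of T cell-, NK cell-, and ILC2-gated barcodes and lay below that of B cell-gated barcodes. The Il1r2 share of monocyte-gated barcodes lay above T cell-gated barcodes only, and met the intervals of ILC2-, NK cell-, and B cell-gated barcodes. Il1rap was just past the limit in macrophage-gated barcodes, at 1.02 (0.64 to 1.43), and was under it at 0.91 when mitochondrial genes and Gm26924 were left out of the totals. When the level of the 25 TTS B cell-gated barcodes was subtracted as free RNA, Il1b in macrophage-gated barcodes was at 0.62 and Il1a at -11.74, and 2 of the 8 genes were then more than 2-fold higher and 4 lower (Il1a, Il1r2, Nlrp3, and Casp1). This subtraction left no TTS UMIs of Il1a, Il1r2, and Casp1 in macrophage-gated barcodes, so that the size of their ratios depends on the added 0.5 UMI. For Casp1, found in lymphocytes of control too, the subtracted level cannot be taken as free RNA alone. In monocyte-gated barcodes 3 were then higher and 2 lower. With the level of ILC2-gated barcodes Il1b and Il1a were at 1.43 and 1.86 in macrophage-gated barcodes, with 5 genes higher and 0 lower.

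**Figure D3:**
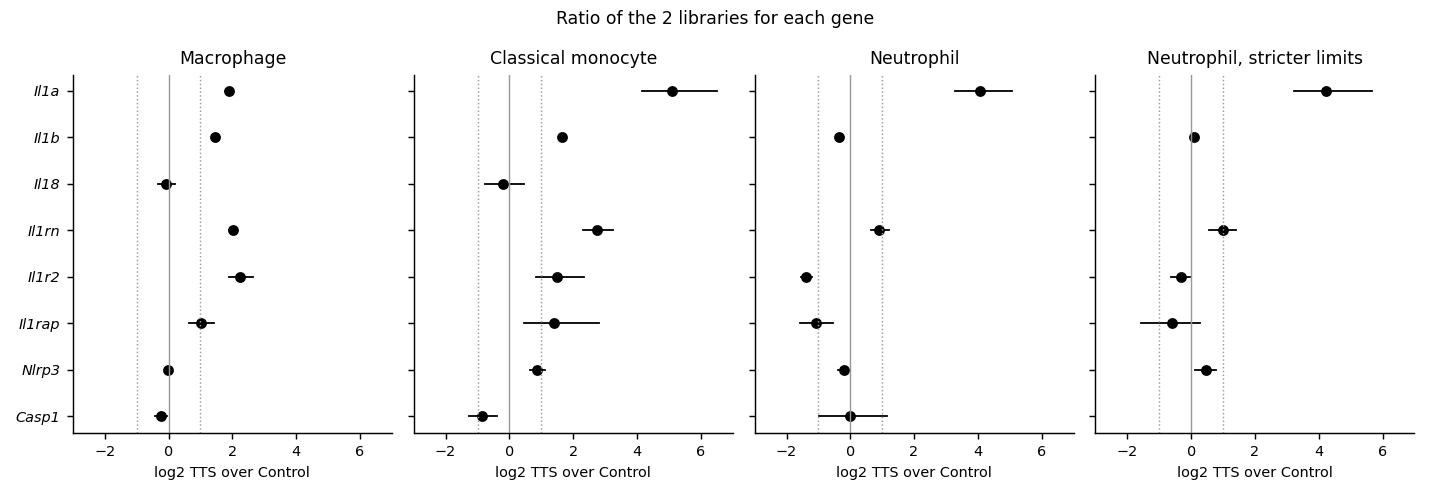
The log2 ratio of TTS over control (horizontal axis) for each gene (vertical axis) in macrophage-, classical monocyte-, and neutrophil-gated barcodes, and in neutrophil-gated barcodes under stricter limits. Points are ratios of summed CPM, lines are 95% counting intervals, dotted lines mark 2-fold, and genes with fewer than 20 UMIs are left out; Il1a lies to the right of 2-fold in every panel, and Il1r2 lies to the left of it only under the first neutrophil limits.

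Subsets of macrophages were compared separately, since the makeup of this class differed between the libraries. Barcodes with resident markers (Timd4, Lyve1, Folr2, and Cd163) made up 55.6% of control and 12.6% of TTS macrophage-gated barcodes. The macrophage list summed to 29611 CPM in control and 12289 CPM in TTS, and the classical monocyte list to 1225 and 3773 CPM, with medians over barcodes of 702 and 3005 CPM. Their part in the differences was not tested beyond this split. In resident-marker barcodes Il1b was at 2667 CPM in control and 6417 CPM in TTS (log2 ratio 1.27, 1.23 to 1.31), Il1a at 84.0 and 272 CPM (1.69, 1.48 to 1.91), and Il1rn at 94.1 and 300.0 CPM (1.67, 1.47 to 1.88). In barcodes with neither resident markers nor Arg1, Il1b was at 5023 and 10993 CPM (1.13, 1.10 to 1.16), Il1a at 141.9 and 399 CPM (1.49, 1.34 to 1.65), and Il1rn at 145.0 and 481 CPM (1.73, 1.58 to 1.88). The summed levels of these 3 genes were thus more than 2-fold higher in TTS within both subsets. In TTS, thinned shares of resident-marker barcodes were 49.8% for Il1b (42.7% to 56.8%) and 14.8% for Il1rn (10.2% to 20.4%). Both intervals met those of T cell- and B cell-gated barcodes and lay above those of ILC2-gated barcodes. For Il1a the share was 13.8% (9.37% to 19.3%), which met the ILC2-gated interval and lay above the T cell-gated interval. These shares were thus not set apart from free RNA in every lymphocyte class. Nlrp3 was at 382 and 411 CPM in the resident-marker barcodes and at 623 and 499.9 CPM in the others, with log2 ratios of 0.10 (-0.03 to 0.23) and -0.32 (-0.40 to -0.24). The 295 Arg1-high macrophage-gated barcodes, found in TTS, had 10141 CPM of Il1b, 498 CPM of Il1a, and 567 CPM of Il1rn, with 5.60 Il1rn UMIs per 100 Il1b UMIs (5.34 to 5.86).

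The monocyte-gated barcodes of TTS also had more of the macrophage list, with 4977 CPM against 1939 CPM in control and medians of 4240 and 1550 CPM. Under a stricter limit on macrophage UMIs, 31 control and 155 TTS barcodes were left. There the log2 ratio was 1.72 for Il1b, 2.49 for Il1rn, and 1.05 for Nlrp3, which was then past 2-fold.

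In neutrophil-gated barcodes 1 of the 7 genes compared was more than 2-fold higher in TTS (Il1a), and 2 were more than 2-fold lower (Il1r2 and Il1rap). Of 5996 genes compared, 32.8% were more than 2-fold higher and 15.0% more than 2-fold lower, with a median log2 ratio of 0.29 against -0.19 for the members. The log2 ratios were -0.36 for Il1b (-0.39 to -0.32), -1.38 for Il1r2 (-1.56 to -1.21), -1.07 for Il1rap (-1.59 to -0.54), and -0.19 for Nlrp3 (-0.38 to -0.0037). TTS barcodes of this class had less of the neutrophil list (41779 against 112454 CPM) and more of the classical monocyte list (5809 against 1579 CPM), and their median depth was 7182.5 against 2731.5 UMIs. Under stricter limits, 54 control and 29 TTS barcodes were left, with 134248 and 163527 CPM of the neutrophil list and 1741 and 3609 CPM of the monocyte list. There Il1a was at 43.2 CPM in control, from 7 UMIs, and 864 CPM in TTS (log2 ratio 4.23, 3.23 to 5.67). Il1r2 was at 1667 and 1326 CPM (-0.33, -0.62 to -0.04), Il1rap at 209.9 and 136.8 CPM (-0.59, -1.57 to 0.28), and Il1b at 27430 and 29334 CPM (0.10, 0.03 to 0.16). Il1a alone was past 2-fold in these barcodes, and neither of the lower calls was kept. Both calls were also lost when barcodes were thinned before summing, at -0.79 for Il1r2 and -0.91 for Il1rap.

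Il1b was seen with the other genes in the same barcodes. In thinned TTS macrophage-gated barcodes, Il1a was found in 3.62% of 387 without an Il1b UMI, 15.2% of 580 with 1 to 9, and 37.0% of 638 with 10 or more. In control the shares were 2.86% of 384, 9.63% of 353, and 14.3% of 105. Barcodes rich in Il1b were thus those with Il1a more often, and more so in TTS at 10 or more UMIs (33.2% to 40.9% against 8.22% to 22.5%). Il1rn was found in 16.02%, 30%, and 38.1% of the TTS groups and 1.30%, 11.6%, and 17.1% of the control groups. At this thinned depth, the share with Il1rn among barcodes without an Il1b UMI was 12.5% to 20.1% in TTS against 0.42% to 3.01% in control, and most of these TTS barcodes held Il1b before thinning. Nlrp3 was found in 47.2% of TTS (43.2% to 51.1%) and 70.5% of control barcodes (60.8% to 79.0%) with 10 or more Il1b UMIs. All barcodes of a library share its free RNA, and these shares are a description.

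**Figure D4:**
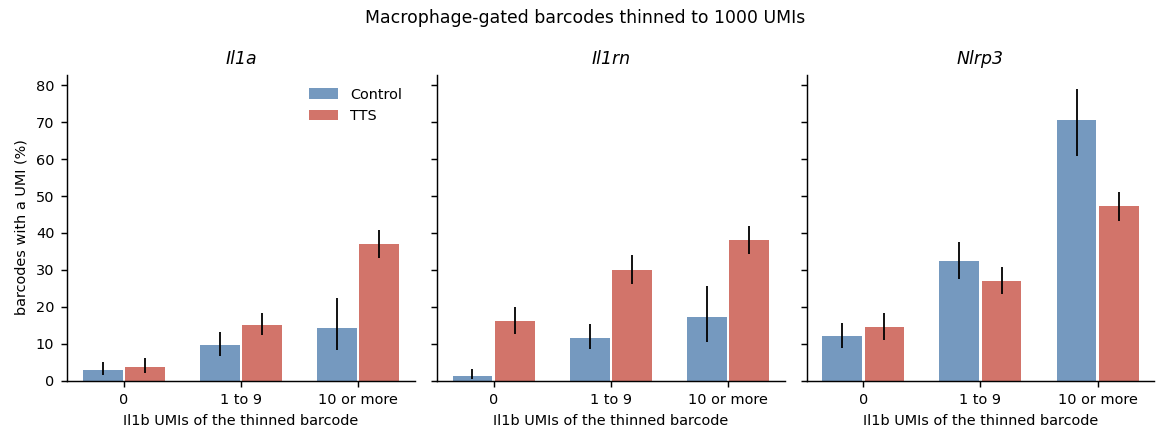
Share of macrophage-gated barcodes with a UMI of Il1a, Il1rn, or Nlrp3 (vertical axis, percent), by the number of Il1b UMIs in the barcode after thinning to 1000 UMIs (horizontal axis), in control (blue) and TTS (red). Bars are shares and lines 95% Clopper-Pearson intervals; Il1rn reached 16.02% of TTS and 1.30% of control barcodes without an Il1b UMI.

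The classes held unequal parts of each transcript. Of the 116263 control and 629500 TTS Il1b UMIs of kept barcodes, macrophage-gated barcodes held 18.8% and 25.5%, monocyte-gated 1.91% and 20.5%, and neutrophil-gated 7.01% and 3.34%. Neutrophil-gated barcodes held 0.766% and 1.90% of all UMIs. Their part of Il1b was thus above their part of the RNA in both libraries. The barcodes left out for markers of a further lineage held 66.2% and 35.8% of Il1b. For Il1r2 the neutrophil-gated part was 21.9% in control and 6.79% in TTS, where macrophage-gated barcodes held 9.61%, monocyte-gated 9.49%, and cDC2-gated 8.22%. The Casp1 UMIs were spread more widely, with 11.7% in B cell-gated control barcodes.

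A list of 80 further genes of the pathway put the 8 in context. Of these, 70 were in the files and 59 could be compared in macrophage-gated barcodes, where 7 were more than 2-fold higher and 13 lower in TTS, with a median log2 ratio of -0.16, against 9.08% higher and 19.6% lower among all genes. In monocyte-gated barcodes 8 of 56 were higher and 13 lower (median -0.39), against 11.7% and 20.1% of all genes. In neutrophil-gated barcodes 10 of 47 were higher and 8 lower (median -0.05), against 32.8% and 15.0% of all genes. The counts include genes with 0 UMIs in 1 library, which are Il1r1 (0 and 37) and Il18rap (0 and 175) in monocyte-gated and P2rx7 (0 and 24) and Gzmb (65 and 0) in neutrophil-gated barcodes, and their fitted ratios depend on the added 0.5 UMI. The medians of the list were below those of the 8 members in macrophage- and monocyte-gated barcodes. Members and list were chosen with earlier results of these data known, so this difference is a description only.

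Among inflammasome genes, the adaptor Pycard was at 110.2 CPM in control and 452 CPM in TTS macrophage-gated barcodes (log2 ratio 2.04), and at 215 and 535 CPM in monocyte-gated barcodes (1.31). ILC2-gated barcodes had 67.8 CPM of Pycard in control and 112.8 CPM in TTS, and T cell-gated barcodes 128.8 and 338 CPM. Control NK cell-gated barcodes had 246 CPM. In neutrophil-gated barcodes Pycard was at 15.7 CPM in control, from 5 UMIs, and 431 CPM in TTS (4.65). Mefv, which encodes the sensor pyrin, was at 23.6 and 101.7 CPM in macrophage-gated barcodes (2.10) and at 177.4 and 149.2 CPM in monocyte-gated barcodes (-0.26). Ninj1, needed for membrane rupture in lytic cell death, was higher in both, with log2 ratios of 1.05 and 1.38. Casp4, which encodes caspase-11 of the noncanonical inflammasome, was lower in both, at 213.6 and 85.5 CPM in macrophage-gated barcodes (-1.32) and 211.4 and 99.2 CPM in monocyte-gated barcodes (-1.10). Txnip, a thioredoxin-binding protein that interacts with NLRP3, was at 368 and 99.8 CPM in macrophage-gated barcodes (-1.88) and at 68.0 and 61.8 CPM in monocyte-gated barcodes (-0.16, -0.62 to 0.39). In macrophage-gated barcodes 1 of 10 sensors was higher and 3 lower, and 3 of 17 adaptors, regulators, and effectors were higher and 5 lower, against 9.08% and 19.6% of all genes, so that these few genes are not set apart from all genes.

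Of the receptors, Il1r1, the signaling receptor of IL-1, was scarce. It was found in 7 control and 24 TTS UMIs of macrophage-gated barcodes, that is 1.19 and 1.53 CPM, and in 0 and 37 UMIs of monocyte-gated barcodes. The IL-33 receptor gene Il1rl1 was at 40.2 CPM in control and 3.95 CPM in TTS macrophage-gated barcodes, a log2 ratio of -3.34, whereas ILC2-gated barcodes had 898 and 968 CPM. Of 22 signaling genes 1 was higher and 1 lower in macrophage-gated barcodes, against 9.08% and 19.6% of all genes. The higher was Nfkbia, which encodes an NF-kB inhibitor that NF-kB induces, at 2496 and 6580 CPM (1.40). Nfkb1 was at 201.8 and 219.7 CPM (0.12) and Myd88 at 80.5 and 101.4 CPM (0.33), both within 2-fold. The protease gene Prtn3 had 2 control and 250 TTS UMIs in macrophage-gated barcodes, a log2 ratio of 5.23 (3.68 to 8.61).

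**Figure D5:**
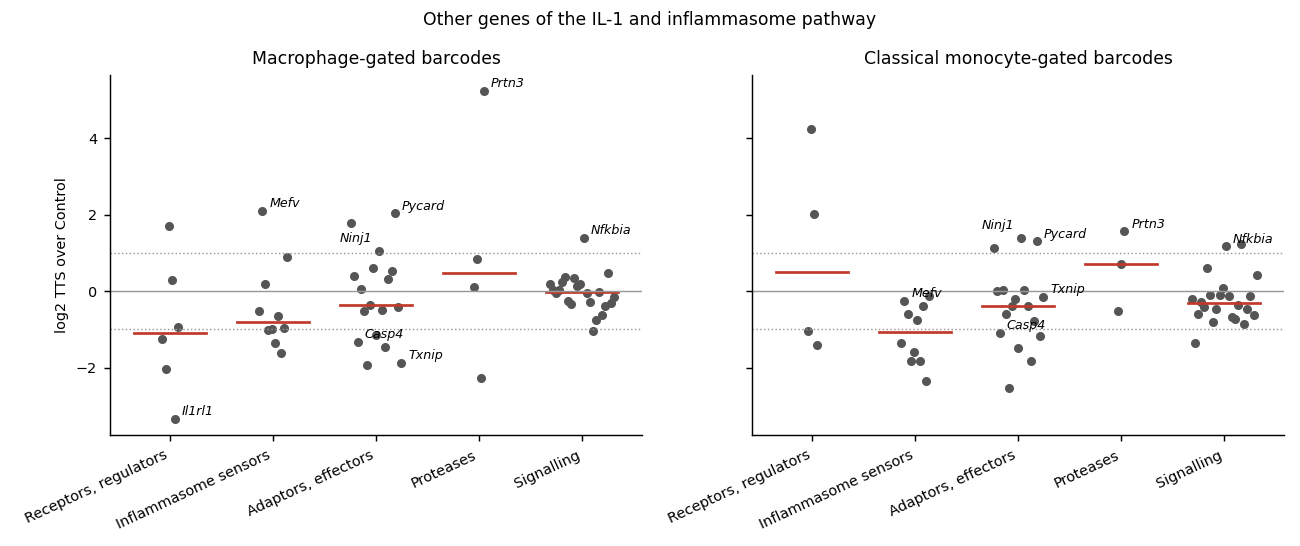
The log2 ratio of TTS over control (vertical axis) for genes of the wider pathway list with at least 20 UMIs, by role (horizontal axis), in macrophage-gated and classical monocyte-gated barcodes. Each point is a gene, red lines are medians, and dotted lines mark 2-fold; Pycard lies at 2.04 and 1.31 and Casp4 at -1.32 and -1.10.

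Over the 14 class and library groups with at least 50 barcodes, the genes with the pattern most like each member were named among 3488 genes, by Pearson r of log2(CPM + 10). For Il1a they were Ccl2, Bcl2a1b, and Clec4n (r = 0.97, 0.96, and 0.96), and for Il1b Ptafr, Csf2rb, and Rbm47 (0.98, 0.97, and 0.97). For Il1rn they were Tgm2, Ptgs2, and Ccr1 (0.96, 0.95, and 0.95), and for Nlrp3 Ptafr, Slc15a3, and Ptgs2 (0.97, 0.96, and 0.96). Il1b and Nlrp3 thus shared Ptafr, which encodes the receptor of platelet-activating factor, and Il1rn and Nlrp3 shared Ptgs2, which encodes cyclooxygenase-2. Il1r2 was nearest to B430306N03Rik, Lilra6, and Cpne2 (0.94, 0.94, and 0.93), and Il1rap to Gm26687, Rab44, and Slfn4 (0.98, 0.97, and 0.97). Casp1 was nearest to Coro1b, Rras, and Stom (0.91, 0.89, and 0.85), and Il18 to Tns3, Mnda, and Psap (0.95, 0.95, and 0.93). The groups of 1 library share its depth and free RNA, and these correlations are a description.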

How the data were processed

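The deposited values were raw counts of UMIs per gene and barcode, which the authors made from 3′ droplet reads with UMI-tools (1.0.0), STAR (2.7.3a) on mm10, and featureCounts (1.6.4). The gene annotation and strand setting were not given in the sources used here. Gene positions come from GENCODE M21 on GRCm38.

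The cell filters followed the methods: above 500 and below 6000 genes, and mitochondrial UMIs below 25%. Classes were gated by marker UMIs per 10000 UMIs, with the limits 32 for neutrophils, macrophages, and classical monocytes and 4 to 32 for others, at least 2 marker UMIs, and the highest score relative to its limit. Barcodes at 0.5 of the limit of another lineage (for mononuclear phagocytes, that of the macrophage list) were left out. This gate replaced doublet calling, and no clustering was used. The limits were set after the data were seen. Members and lists were chosen with earlier results of these data known.

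UMIs were summed per class and library, 0.5 UMI was added for log2 ratios, and genes with at least 20 UMIs over both libraries were compared. A gene was counted as higher or lower past 2-fold. With 1 library per group no test was made. Intervals are exact, at 95%. For shares, barcodes were thinned to 1000 UMIs, which left out 6 control lymphocyte-gated barcodes. Genes of the wider list were named when they had at least 50 UMIs and 100 CPM, or were among the 3 largest ratios each way; the 3 genes most like each member were named by r among genes with at least 100 CPM. Python 3.11.15, numpy 2.4.6, scipy 1.17.1, pandas 2.3.3, and matplotlib 3.10.9 were used, and scripts were tested on simulated data. Alternatives changed the gates, filters, totals, free RNA, thinning, and fold limit.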

Additional observations from a re-analysis of the deposited data

Results flagged for a closer look

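The log2 ratio of TTS over control went opposite ways in neutrophil-gated barcodes and in macrophage- or monocyte-gated barcodes for 4 genes, each with a counting interval apart from 0 in both classes. The difference itself was not tested, as there was 1 library per group. For Il1b the macrophage-gated ratio was 1.82 above the neutrophil-gated ratio and the monocyte-gated ratio 2.01 above it. For Il1r2 these differences were 3.63 and 2.87, for Il1rap 2.09 and 2.47, and for Nlrp3 1.06 between monocyte- and neutrophil-gated barcodes. Under the stricter neutrophil limits the neutrophil-gated ratios were 0.10 for Il1b, -0.33 for Il1r2, -0.59 for Il1rap, and 0.46 for Nlrp3. The opposite sign thus did not hold for Il1b and Nlrp3. For Il1rap the interval then included 0 (-1.57 to 0.28), whereas that of Il1r2 did not (-0.62 to -0.04). With barcodes of 2 lineages counted, the neutrophil-gated ratio of Il1rap was 0.15. The TTS share of macrophage-gated barcodes with Il1rap met the interval of each lymphocyte class. That with Il1r2 met those of T cell-, NK cell-, and ILC2-gated barcodes and lay below that of B cell-gated barcodes. The monocyte-gated share with Il1r2 lay above that of T cell-gated barcodes only, and met those of ILC2-, NK cell-, and B cell-gated barcodes.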

How the results depend on the processing

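No paired analysis was possible because each group had 1 library. The count of members past 2-fold was 5 in macrophage-gated, 3 in neutrophil-gated, and 5 in monocyte-gated barcodes, and with a 3-fold limit it was 3, 1, and 3. Under the stricter neutrophil limits, added after the data were seen, it was 1. Il1b, Il1rn, and Il1a in macrophage- and monocyte-gated barcodes had ratios above 0 under the alternatives run, except Il1a under 1 of them. When the CPM of B cell-gated barcodes was subtracted as free RNA, the log2 ratio of Il1a was -11.74 in macrophage-gated and -0.13 in monocyte-gated barcodes, and that of Il1r2 was -7.79 and -1.26, while Il1b in macrophage-gated barcodes was at 0.62. In TTS that level came from 25 barcodes. With ILC2-gated barcodes as the source of free RNA, a choice added later, Il1a was at 1.86 and 5.07 and Il1b at 1.43 and 1.63. With barcodes of 2 lineages counted, Il1rap in neutrophil-gated barcodes was at 0.15.

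The share of Il1b UMIs in macrophage-gated barcodes of control was 63.2% with barcodes of 2 lineages counted, 18.4% with gate limits of 2 times, and 15.9% with no cell filter. In TTS it was 36.8%, 17.9%, and 24.7% under these settings, 27.9% with gate limits of 0.5 times, and 24.9% with free RNA subtracted. The neutrophil-gated share of control was 19.7% with 2 lineages counted, 5.86% with no cell filter, 6.596% with a mitochondrial limit of 10%, and 7.25% with free RNA subtracted. In TTS it was 19.7% with 2 lineages counted, 3.84% and 2.72% with gate limits of 0.5 and 2 times, 3.23% with no cell filter, and 3.81% with free RNA subtracted. The Il1rn UMIs per 100 Il1b UMIs of macrophage-gated barcodes were 2.69 in control with 2 lineages counted and 2.85 as a mean of single barcodes, and 4.43 in TTS with gate limits of 2 times and 4.34 with free RNA subtracted. The wider list had 11 genes past 2-fold in neutrophil-gated barcodes at 50 UMIs, against 18, and 33 past 1.5-fold in monocyte-gated barcodes, against 21 past 2-fold. The causes of these shifts were not tested.

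Each value rests on 1 library of 3 pooled hearts, so the spread between mice is unknown. The low TTS shares of Il1rap and Il1r2 in macrophages could not be told from free RNA at this depth.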

Other observations

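The dendritic and nonclassical monocyte classes were small and were not counted among the comparisons. In cDC2-gated barcodes, 41 in control and 253 in TTS, Il1a was at 71.0 CPM in control (46.8 to 103.4) and 144.7 CPM in TTS (129.5 to 161.2), and Il1rn at 81.6 CPM (55.4 to 115.8) and 160.0 CPM (144.0 to 177.3). Il18 was at 26.3 CPM (12.6 to 48.4) and 10.96 CPM (7.09 to 16.2). For Il1a and Il1rn, T cell-gated TTS barcodes had 161.8 and 157.8 CPM, and ILC2-gated TTS barcodes had 9.40 and 155.1 CPM. The TTS levels of these genes in cDC2-gated barcodes were thus not set apart from free RNA in every lymphocyte class. In cDC1-gated barcodes, 45 in control and 95 in TTS, Nlrp3 was at 142.4 CPM (113.7 to 176.0) and 84.5 CPM (68.0 to 103.9), and Il1r2 at 56.9 CPM (39.4 to 79.6) and 56.4 CPM (43.0 to 72.5). The TTS level of Nlrp3 lay below those of the lymphocyte classes, from 117.5 CPM in ILC2-gated to 350 CPM in B cell-gated barcodes. That of Il1r2 was near the 56.6 CPM of T cell-gated TTS barcodes. Neither TTS level was thus set apart from free RNA. The 47 nonclassical monocyte-gated control barcodes had 4975 CPM of Il1b with 0.44 Il1rn UMIs per 100 Il1b UMIs (0.14 to 1.03), and the 9 in TTS had 12306 CPM of Il1b.

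The 17 mature DC-gated TTS barcodes had 11367 CPM of Il1b (10833 to 11921), 409 CPM of Il1rn (313 to 525), and 33.5 CPM of Il1a (10.9 to 78.2). Among classes with at least 50 barcodes, the Il18 receptor genes were highest in NK cell-gated barcodes of control. These had 286 CPM of Il18r1 and 469.9 CPM of Il18rap, against 3.74 and 3.23 CPM in macrophage-gated barcodes of control. Control T cell-gated barcodes had 91.9 and 51.3 CPM, and control neutrophil-gated barcodes 43.9 and 175.5 CPM. The 578 TTS barcodes that reached no limit had 10524 CPM of Il1b, 429 CPM of Il1a, and 388 CPM of Il1rn.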
